A study of Homo sapiens with 12 samples.

Results

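Annexins are proteins that bind acidic phospholipids of membranes when calcium is present, through a conserved core of repeated domains. They differ from one another most in the tail in front of that core. They take part in vesicle traffic, in resealing of torn plasma membrane, in the anchoring of actin to membranes and, for ANXA2 together with S100A10, in the assembly of plasminogen at the cell surface. Several of them mark epithelia: ANXA13 is best known from the intestine and ANXA10 from the stomach.

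The 10 annexin genes described here were chosen by name from a table of 25528 rows. They are ANXA1, ANXA2, ANXA3, ANXA4, ANXA5, ANXA6, ANXA7, ANXA10, ANXA11 and ANXA13, and all 10 were found. The list was drawn up with results of both comparisons known, among them the decrease of ANXA13 after APC knockdown. For that reason the changes of the members in the 2 comparisons are given as descriptions, with their standard error and without p-values. The table also holds rows for ANXA8, ANXA8L1 and ANXA9 that were outside the list. ANXA8 was at 0 in 11 of the 12 libraries and ANXA8L1 in all 12, whereas ANXA9 averaged between 12.3 and 18.0 TPM per group and was left out although it was measured.

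All libraries came from HT-29, an established line from a human colon adenocarcinoma that is labelled APC mutant, so every group carried mutant APC before any manipulation. Lentivirus delivered either an open reading frame, GFP as control or CTNNB1 (beta-catenin), with collection 2 days after infection, or a hairpin, the control shNT1 or shAPC, with collection 1 day after induction by 2 µM doxycycline. There were 3 libraries in each of the 4 groups, and the labels do not say whether these came from separate cultures, so the spread between them may be technical. Levels are in TPM (transcript counts scaled to the same total in each library), which are scaled by transcript length and can be compared between genes, but which keep no sequencing depth. The depth behind each value is therefore unknown.

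Between 14756 and 16186 genes were above 0 per library, and Pearson r of log2(TPM + 1) between libraries of a group ranged from 0.991 to 0.997 over 11741 genes. Of the targeted genes, APC went from 16.4 ± 0.80 TPM (shNT1) to 5.99 ± 0.56 TPM (shAPC), and CTNNB1 from 146 ± 2.9 TPM (GFP) to 160 ± 4.2 TPM (CTNNB1 group), with SD over 3 libraries. The rise of CTNNB1 was small, with a ratio of 1.09. For this gene the authors' deposited table gave a log2 fold change of 0.057 (limma adjusted p = 0.10). Of 11 genes of colon epithelium, 9 averaged over 1 TPM, while the intestinal transcription factors CDX1 and CDX2 did not exceed 0.402 and 0.875 TPM in any library. Of 9 genes of blood, endothelial and connective tissue cells, CD14 reached 3.15 TPM and the other 8 stayed under 0.70 TPM.

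The windows in front of the transcription start are shown for 4 annexins that moved in the same direction in both comparisons, ANXA10 and ANXA2, which fell, and ANXA6 and ANXA3, which rose. They are the 250 bases before the start, 5′ to 3′ on the gene's strand, from RefSeq on GRCh38.p14. For ANXA6 the more upstream of its 2 listed starts is shown. Capitals mark the TATA box core TATAAA. They also mark the GC box core, GGGCGG, and the AP-1 motif, written TGANTCA. Each was read on both strands.
ANXA10 (chr4:168092287-168092536, plus strand): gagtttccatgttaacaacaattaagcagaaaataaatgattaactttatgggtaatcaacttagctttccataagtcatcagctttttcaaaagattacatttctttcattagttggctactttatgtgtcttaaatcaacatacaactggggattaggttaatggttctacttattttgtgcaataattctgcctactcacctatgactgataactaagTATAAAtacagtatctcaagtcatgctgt
ANXA2 (chr15:60397987-60398236, minus strand): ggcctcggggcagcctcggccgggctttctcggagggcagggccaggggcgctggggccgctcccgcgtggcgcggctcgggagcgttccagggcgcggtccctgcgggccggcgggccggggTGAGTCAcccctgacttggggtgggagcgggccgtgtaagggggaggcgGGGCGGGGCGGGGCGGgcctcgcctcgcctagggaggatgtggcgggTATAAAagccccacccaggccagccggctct
ANXA6 (chr5:151157780-151158029, minus strand): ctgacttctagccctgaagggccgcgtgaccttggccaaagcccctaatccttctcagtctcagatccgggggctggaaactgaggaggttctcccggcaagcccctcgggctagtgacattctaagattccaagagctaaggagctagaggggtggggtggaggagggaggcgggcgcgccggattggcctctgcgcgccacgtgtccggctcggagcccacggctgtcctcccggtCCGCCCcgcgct
ANXA3 (chr4:78551520-78551769, plus strand): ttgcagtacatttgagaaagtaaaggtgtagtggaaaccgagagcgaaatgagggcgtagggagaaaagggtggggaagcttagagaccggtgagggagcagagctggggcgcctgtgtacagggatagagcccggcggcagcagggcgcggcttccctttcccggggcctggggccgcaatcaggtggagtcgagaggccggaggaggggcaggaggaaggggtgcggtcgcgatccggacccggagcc

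RefSeq windows of 300 bases (250 before the start and 50 after) matched 9 of the 10 annexins. The ANXA10 window was poor in G and C, at 32.7%, and held no CG dinucleotide, whereas the ANXA2 window stood at 76.0% with 32 of them. The median over 35116 such windows was 58.7% and 14. ANXA6 had 66.3% and 25 CG dinucleotides, and ANXA3 64.7% and 25. TATAAA began 29 bases before the start of ANXA10 and 31 bases before those of ANXA2 and ANXA1. It was found in 11.5% of all windows. The ANXA2 window also held 3 overlapping copies of GGGCGG, present in 45% of all windows, and 1 TGANTCA, present in 7.71%. The heptamers CTTTGAA and CTTTGAT, which TCF/LEF factors bind, are not among the letters of any matched annexin window, on either strand, and either of them occurs in 6.86% of all windows. The annotation places the ANXA10 gene on chromosome 4 from 168092537 to 168187736, ANXA3 on chromosome 4 from 78551770 to 78610447, ANXA6 on chromosome 5 from 151100706 to 151157779 and ANXA2 on chromosome 15 from 60347151 to 60397986.

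The annexins spanned a wide range of levels in HT-29. By mean TPM over the 12 libraries ANXA2 was highest (3177 TPM, rank 43 of 25528 rows), followed by ANXA5 (699 TPM) and ANXA1 (538 TPM). ANXA10, ANXA3, ANXA4, ANXA11 and ANXA7 lay between 268 and 117 TPM. The lowest were ANXA13 (5.78 TPM) and ANXA6 (3.92 TPM), which also varied most between groups: their group means of log2(TPM + 1) spanned 1.94 and 2.19, against 0.24 for ANXA11, the steadiest member.

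**Figure D1:**
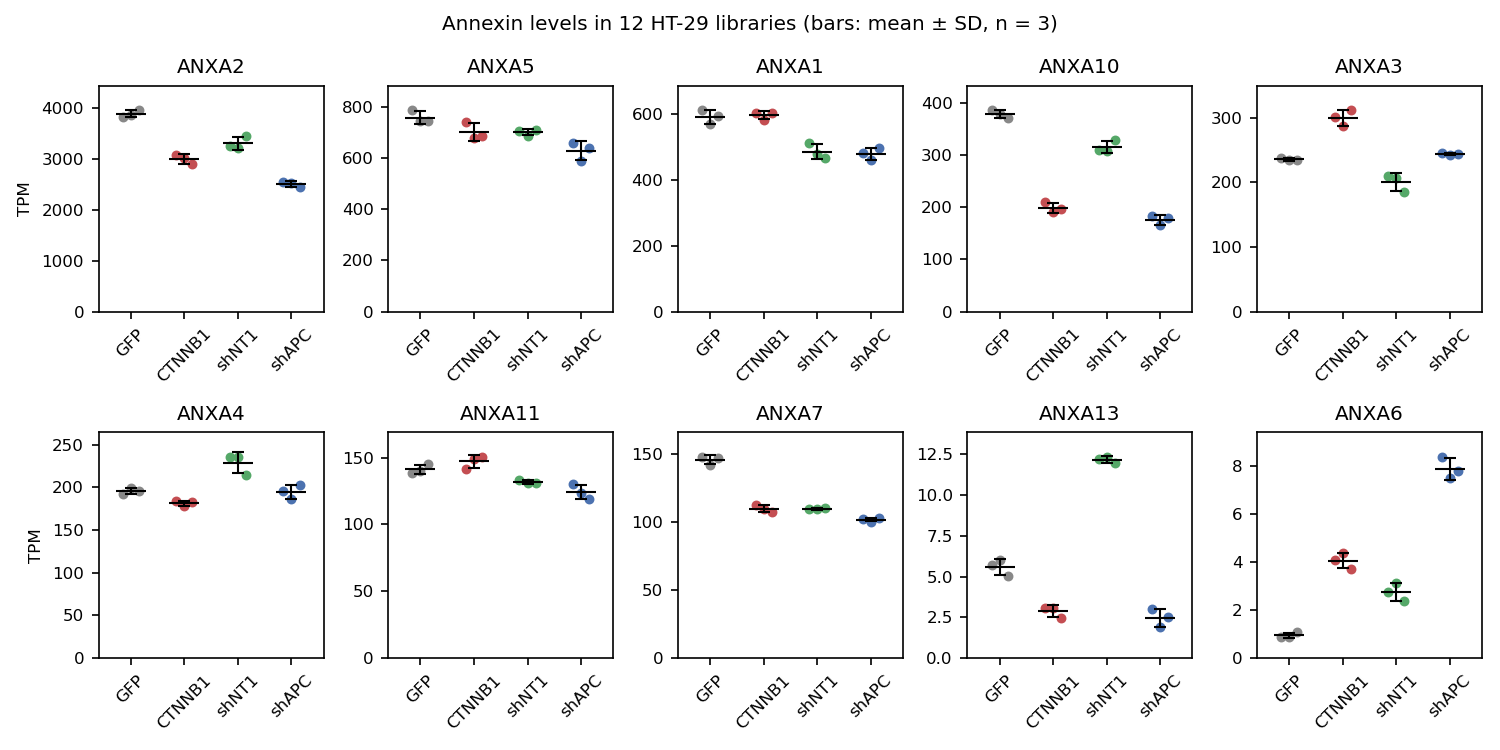
Level of each annexin in TPM (y axis, from 0, a scale of its own in each panel) in the 4 groups (x axis), with points for the 3 libraries of a group and black bars for mean ± SD. ANXA10 and ANXA2 lie lower in CTNNB1 and shAPC than in their controls, ANXA6 and ANXA3 lie higher, and ANXA13 is highest in shNT1.

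Each comparison was fitted over all genes with a mean of at least 1 TPM in limma on log2(TPM + 1), and a gene is named called where its Benjamini-Hochberg adjusted p was under 0.05. In CTNNB1 against GFP, 6 of the 10 annexins were called, 2 higher (ANXA3 and ANXA6) and 4 lower (ANXA2, ANXA7, ANXA10 and ANXA13). Of all 11624 genes tested, 23.5% were called, 16.3% higher and 7.16% lower. In shAPC against shNT1, 6 of 10 were again called, 2 higher (ANXA3 and ANXA6) and 4 lower (ANXA2, ANXA4, ANXA10 and ANXA13), where 22.1% of 11834 genes were called, 7.24% higher and 14.9% lower. Called in the same direction in both were ANXA2, ANXA3, ANXA6, ANXA10 and ANXA13, which is 5 of 10 members, and 7.31% of the 11556 genes tested in both. The balance of higher and lower calls over all genes moved with scaling: higher calls made up 69.5% in the CTNNB1 comparison and 32.8% in the shAPC comparison, but 46.1% and 44.3% under median-ratio scaling. Since these contrasts were known when the members were listed, a call of a member here only says where it stands in the fit of all genes. It is no independent test, and nothing is read from these shares. All 10 members passed the filter in each comparison. ANXA6 passed it in CTNNB1 against GFP through the CTNNB1 libraries, as its GFP mean was 0.951 TPM, so its call there followed in part from the filter. Without it the count was 5 of 9.

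The median log2 fold change of the 10 annexins was -0.11 in CTNNB1 against GFP, beside 0.06 for all genes tested, and -0.13 in shAPC against shNT1, beside -0.04. A log2 fold change of 0.5 or more in either direction was seen for 3 of 10 annexins in each comparison (ANXA6, ANXA10 and ANXA13), and for 5.75% and 5.15% of all genes. The 2 groups did not overlap for 8 of 10 annexins in the CTNNB1 comparison and 9 of 10 in the shAPC comparison, against 43.2% and 40.9% of all genes.

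**Figure D2:**
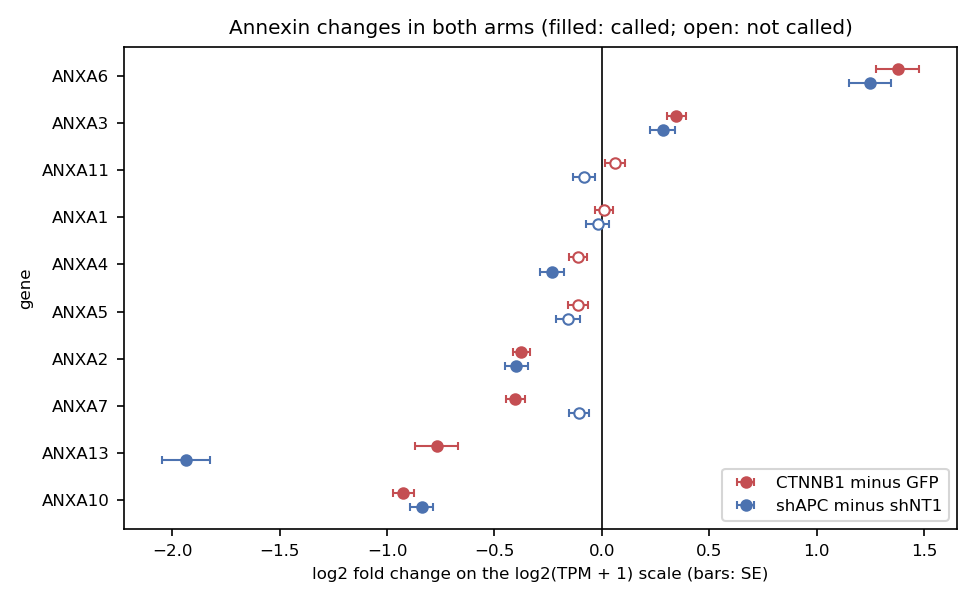
Log2 fold change on the log2(TPM + 1) scale (x axis) of each annexin (y axis) in CTNNB1 minus GFP (red) and shAPC minus shNT1 (blue), with standard errors as bars, filled where called and open where not. ANXA6 (1.38 and 1.25) lies at the right end and ANXA10 (-0.92 and -0.84) and ANXA13 (-0.77 and -1.94) at the left, and the values of ANXA13 in the 2 comparisons lie farthest apart.

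ANXA10 (ENSG00000109511), an annexin of gastric epithelium that lacks most of the calcium sites of its relatives, fell the most of the abundant members. It stood at 387, 379 and 373 TPM in the GFP libraries and at 210, 191 and 198 TPM in the CTNNB1 libraries. In the hairpin arm it stood at 310, 308 and 329 TPM in shNT1 and at 183, 166 and 179 TPM in shAPC. All 6 perturbed libraries lay below all 6 control libraries. The means were 1.90 times and 1.79 times lower than in the controls, with log2 fold changes of -0.92 (SE 0.05) and -0.84 (SE 0.05).

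Genes of gastric mucous cells were set beside ANXA10, since they could mark cells of that kind in the culture. Of the 8 listed, 5 were tested. In CTNNB1 against GFP 3 were called lower (MUC5AC, VSIG1 and CTSE), and in shAPC against shNT1 4 were (these and TFF1), with none higher in either. Of all genes, 7.16% and 14.9% were called lower in these comparisons. VSIG1 passed the filter in shAPC against shNT1 only through the shNT1 libraries, as its shAPC mean was 0.802 TPM. Its call there followed in part from the filter. The summed level of the 8 genes ranged from 82.4 to 98.5 TPM in GFP, from 50.4 to 59.7 TPM in CTNNB1, from 80.3 to 92.6 TPM in shNT1 and from 37.1 to 47.1 TPM in shAPC. GKN1 and GKN2 were listed at 0 in all 12 libraries and MUC6 did not exceed 0.00954 TPM. In bulk RNA fewer cells of a type and less RNA per cell cannot be told apart, and the part of these genes in the ANXA10 values was not tested.

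ANXA2 (ENSG00000182718), which joins S100A10 in a tetramer at the plasma membrane, was the bulk of annexin RNA and fell by a smaller factor. It stood at 3835, 3876 and 3964 TPM in GFP and at 3074, 3030 and 2900 TPM in CTNNB1. In shNT1 it stood at 3249, 3225 and 3451 TPM and in shAPC at 2554, 2525 and 2449 TPM. The groups of each arm did not overlap, and the group means changed by -22.9% and -24.2% (log2 fold changes -0.37, SE 0.04, and -0.40, SE 0.05). ANXA2 has processed pseudogenes. The rows ANXA2P1, ANXA2P2 and ANXA2P3 together averaged 268 ± 32 TPM in GFP, 179 ± 34 TPM in CTNNB1, 203 ± 30 TPM with shNT1 and 162 ± 51 TPM with shAPC (SD, n = 3 each). The handling of reads that also match these copies is not given in the sources used here, so the level of ANXA2 is uncertain, by an amount these values do not bound.

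The decrease of ANXA2 set most of the change in the summed annexin level. The 10 genes together came to 6347 ± 55 TPM in GFP, 5246 ± 118 TPM in CTNNB1, 5496 ± 109 TPM with shNT1 and 4469 ± 82 TPM with shAPC (SD, n = 3 each). This was 0.635% of all TPM in GFP and 0.447% in shAPC. ANXA2 made up 61.3%, 57.2%, 60.2% and 56.2% of the annexin total in these 4 groups in the same order.

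**Figure D3:**
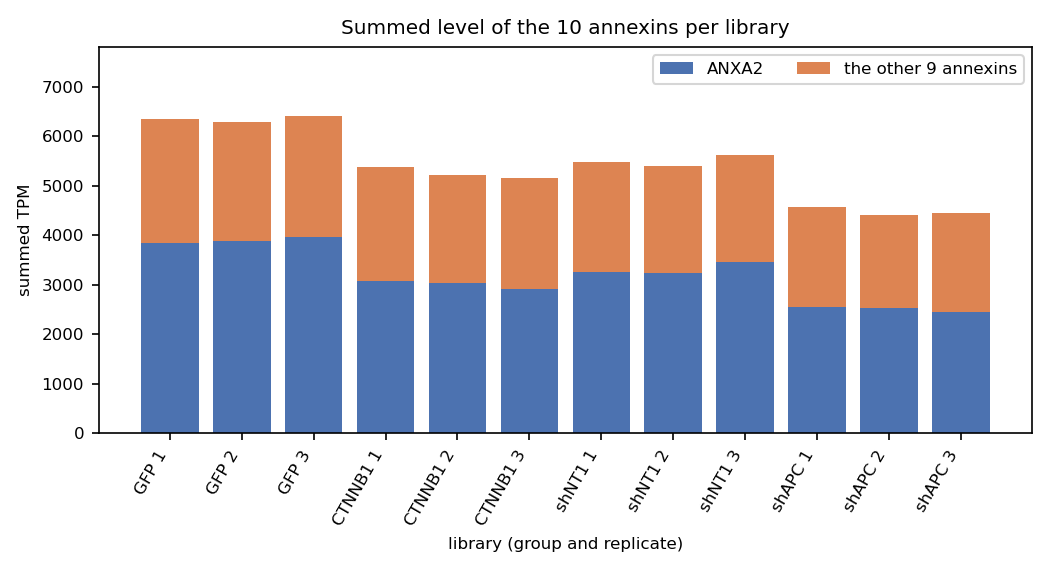
Summed TPM of the 10 annexins (y axis, from 0) in each of the 12 libraries (x axis), split into ANXA2 (blue) and the other 9 (orange). The GFP libraries reach 6292 to 6403 TPM and the shAPC libraries 4402 to 4560 TPM, and the ANXA2 share of the bars is smaller in CTNNB1 and shAPC.

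ANXA13 (ENSG00000104537), an intestinal annexin that is myristoylated and bound to the apical membrane of epithelial cells, was low in the line and was the member whose decrease after APC knockdown was known in advance. It stood at 5.68, 6.02 and 5.06 TPM in GFP and at 3.10, 3.06 and 2.45 TPM in CTNNB1. In shNT1 it stood at 12.2, 12.4 and 12 TPM and in shAPC at 3.01, 1.92 and 2.50 TPM. The controls thus differed from each other, while the libraries of the 2 perturbed groups overlapped. The means were 1.95 times lower in CTNNB1 and 4.92 times lower in shAPC. On the log2(TPM + 1) scale, which understates changes at such low levels, the log2 fold changes were -0.77 (SE 0.10) and -1.94 (SE 0.11).

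Enterocyte genes were set beside ANXA13 in the same way. Of 10 listed, 4 were tested, of which CA2 and CDHR5 were called lower and VIL1 higher in CTNNB1 against GFP. Of all genes, 7.16% were called lower and 16.3% higher there. In shAPC against shNT1 CA2, CDHR5 and KRT20 were called lower, where 14.9% of all genes were. CDHR5 passed the filter there only through the shNT1 libraries, as its shAPC mean was 0.968 TPM, so its call followed in part from the filter. The summed level of the list ranged from 277 to 283 TPM in GFP, from 274 to 288 TPM in CTNNB1, from 252 to 261 TPM in shNT1 and from 185 to 205 TPM in shAPC. ALPI, APOA4 and AQP8 were listed at 0 in all 12 libraries, and SI and SLC26A3 did not exceed 0.0301 and 0.0331 TPM. FABP1 reached 1.86 TPM. The part of these genes in the ANXA13 values was not tested.

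ANXA6 (ENSG00000197043), the member with a doubled core that binds membranes of the endocytic route, rose from very low levels in both comparisons. It stood at 0.877, 0.898 and 1.08 TPM in GFP and at 4.11, 4.38 and 3.72 TPM in CTNNB1. In shNT1 it stood at 2.75, 3.14 and 2.38 TPM and in shAPC at 8.40, 7.50 and 7.81 TPM. No 2 groups overlapped, and the order of the group means was shAPC, CTNNB1, shNT1 and GFP. The means rose 4.28-fold and 2.87-fold. On the log2(TPM + 1) scale, which understates changes at these levels, the log2 fold changes were 1.38 (SE 0.10) and 1.25 (SE 0.10).

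ANXA3 (ENSG00000138772), a member with a short tail that is found in many epithelial and myeloid cells, rose modestly. It stood at 238, 235 and 234 TPM in GFP and at 302, 287 and 312 TPM in CTNNB1. In shNT1 it stood at 210, 207 and 185 TPM and in shAPC at 246, 242 and 244 TPM. The groups of each arm did not overlap, and the means rose 1.27-fold and 1.22-fold (log2 fold changes 0.35, SE 0.04, and 0.28, SE 0.06). The shAPC libraries, although above shNT1, lay only slightly above the GFP libraries.

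ANXA7 (ENSG00000138279), first described as a protein that brings secretory vesicles together, was called in CTNNB1 against GFP alone. It stood at 148, 142 and 147 TPM in GFP and at 112, 110 and 107 TPM in CTNNB1 (log2 fold change -0.40, SE 0.04). In shNT1 it stood at 109, 109 and 110 TPM and in shAPC at 102, 100 and 103 TPM (-0.11, SE 0.05). The GFP libraries stood above all the others, and the CTNNB1 and shNT1 libraries overlapped.

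ANXA4 (ENSG00000196975), a member of secretory epithelia, was called lower in shAPC alone. Its mean was 229 ± 12 TPM for shNT1, 195 ± 8.2 TPM for shAPC, 196 ± 3.6 TPM for GFP and 181 ± 3.0 TPM for CTNNB1 (SD, n = 3 each). The log2 fold changes were -0.23 (SE 0.06) in the shAPC comparison and -0.11 (SE 0.04) in the CTNNB1 comparison. The first was no longer called under median-ratio scaling (-0.19), under quantile normalization (-0.16), or without shNT1 replicate 1 (-0.21), shNT1 replicate 2 (-0.21) or shAPC replicate 2 (-0.20). The second was called under median-ratio scaling (-0.18) and without CTNNB1 replicate 1 (-0.12).

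ANXA5, ANXA1 and ANXA11 were not called in either comparison. ANXA5 (ENSG00000164111), the phosphatidylserine binder used to stain apoptotic cells, had means of 760 ± 25 TPM for GFP, 704 ± 34 TPM for CTNNB1, 702 ± 12 TPM for shNT1 and 630 ± 36 TPM for shAPC (SD, n = 3 each). Its log2 fold changes were -0.11 (SE 0.05) and -0.16 (SE 0.05). It was called in the CTNNB1 comparison under median-ratio scaling (-0.18) and without CTNNB1 replicate 1 (-0.15), and in the shAPC comparison in a fit of all 4 groups (-0.16). ANXA1 (ENSG00000135046), a mediator of the anti-inflammatory action of glucocorticoids, had means of 591 ± 21 TPM for GFP, 596 ± 13 TPM for CTNNB1, 485 ± 23 TPM for shNT1 and 478 ± 18 TPM for shAPC (SD, n = 3 each). ANXA11 (ENSG00000122359), which tethers RNA granules to lysosomes, had means of 141 ± 3.6 TPM for GFP, 147 ± 4.8 TPM for CTNNB1, 132 ± 1.3 TPM for shNT1 and 124 ± 5.5 TPM for shAPC (SD, n = 3 each). The log2 fold changes of ANXA1 were 0.01 (SE 0.04) and -0.02 (SE 0.05), and those of ANXA11 were 0.06 (SE 0.05) and -0.08 (SE 0.05). The signs of both genes changed with scaling.

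The change in the 2 arms was compared in a fit of all 12 libraries, as the CTNNB1 effect minus the shAPC effect. It is built from the contrasts known when the members were listed and is given as a description too. ANXA7 (-0.30, SE 0.06) and ANXA13 (1.17, SE 0.16) were called, 2 of 10 members, 1 in each direction, where 16.1% of 11741 genes were called, 13.3% higher and 2.76% lower. For the other 8 the differences ranged from -0.08 to 0.14, with standard errors between 0.06 and 0.14, so a difference of a size within these errors was not resolved. The value of ANXA6 depended on the pseudocount: it was 0.13 (SE 0.14) here and 0.50 (SE 0.18, not called) with a pseudocount of 0.1. With median-ratio scaling, which took the median of this difference over all genes from 0.11 to 0.00, ANXA10 was called as well (-0.20), and higher calls over all genes went from 82.8% to 54.7% of calls. Vector, collection day and doxycycline differed between the arms and cannot be told apart from the perturbation.

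The 2 control groups were then compared with each other, a contrast that was not named in listing the members. It shares the control libraries with both comparisons above, which were known. A member listed because a control stood high or low would also differ here. The calls and p-values of this contrast are therefore descriptions and no independent test. ANXA13 is given here without a test because its control levels were known. Of the other 9 annexins 7 were called in shNT1 minus GFP, 2 higher and 5 lower, where 29.6% of 11741 genes were called, 20.8% higher and 8.81% lower. Higher calls were 70.2% of these, and 46.9% under median-ratio scaling. Higher in shNT1 were ANXA6 (log2 fold change 0.94, SE 0.10) and ANXA4 (0.22, SE 0.05, limma adjusted p = 0.0035). ANXA6 passed the filter through the groups where it was higher, as its GFP mean was 0.951 TPM. Its call followed in part from the filter and is given without a p-value. At a mean of at least 5 TPM ANXA6 was not tested. There, with ANXA13 left out too, 6 of 8 annexins were called, 1 higher and 5 lower, and 2804 of 9439 genes. The untested difference of ANXA13 was 1.00 (SE 0.11). Under median-ratio scaling ANXA4 was no longer called (0.15, limma adjusted p = 0.064).

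Lower in shNT1 was ANXA7 above all (-0.41, SE 0.04, limma adjusted p = 7.3e-06), followed by ANXA1 (-0.29, SE 0.05, limma adjusted p = 0.00056) and ANXA10 (-0.27, SE 0.05, limma adjusted p = 0.0015). ANXA2 and ANXA3 were lower by similar amounts (-0.23 for each, limma adjusted p = 0.0013 and 0.0036). The libraries of GFP and shNT1 did not overlap for any of the 10 members, as for 48.5% of all genes. ANXA5 (-0.11) and ANXA11 (-0.10) were not called (limma adjusted p = 0.11 and 0.12), but were under median-ratio scaling (-0.19 and -0.17, limma adjusted p = 0.0081 and 0.0092). The gap between the controls was thus 1.00 for ANXA13 beside changes of -0.77 and -1.94 in the arms, and 0.27 lower for ANXA10 in shNT1 beside -0.92 and -0.84. These groups also differed in vector, collection day and doxycycline, which cannot be told apart.

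Other genes of annexin biology came from a list of 27 binding partners, membrane repair proteins and plasminogen activation genes, of which 20 were tested. In CTNNB1 against GFP 8 were called, 3 higher and 5 lower, PLAU among the higher. In shAPC against shNT1 11 were, 1 higher and 10 lower. Of all genes, 23.5% were called in the first comparison (16.3% higher, 7.16% lower) and 22.1% in the second (7.24% higher, 14.9% lower). The median log2 fold change of the tested genes was -0.07 and -0.19, beside 0.06 and -0.04 for all genes. The receptors of ANXA1 were at or near 0: FPR2 was listed at 0 throughout, and FPR1 and FPR3 did not exceed 0.397 and 0.0367 TPM. DYSF and TRIM72, which act in membrane repair of muscle, and PLAT stayed under 0.15 TPM. CHMP3 did not exceed 0.200 TPM, while CHMP4A and CHMP4B of the same list reached 56.9 and 386 TPM. How reads were assigned to genes is not given, so the CHMP3 value need not mean that the gene was silent.

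S100A10, the partner of ANXA2, fell in both arms. Its mean was 1795 ± 31 TPM for GFP, 1404 ± 26 TPM for CTNNB1, 1470 ± 37 TPM for shNT1 and 1200 ± 38 TPM for shAPC (SD, n = 3 each). Its log2 fold changes were -0.35 (SE 0.04) and -0.29 (SE 0.05). The ratio of ANXA2 to S100A10 TPM stayed between 1.97 and 2.36 in the 12 libraries, with means of 2.17 in GFP, 2.14 in CTNNB1, 2.25 in shNT1 and 2.09 in shAPC. S100A6 and S100A4, relatives of S100A10 that also bind annexins, were also called lower in both arms (-0.46 and -0.40 for S100A6, -0.30 and -0.32 for S100A4). S100A11, another S100 protein that binds annexins, was not called in CTNNB1 (-0.11, SE 0.07) and was lower in shAPC (-0.32, SE 0.06).

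The plasminogen activator genes went different ways. PLAU, the urokinase, had the largest change of the list in CTNNB1 against GFP (0.86, SE 0.13), from 0.590 ± 0.20 to 1.88 ± 0.17 TPM (SD, n = 3 each). It passed the filter there only through the CTNNB1 libraries, so its call is given without a p-value. It was not called in shAPC (0.26, SE 0.17). PLAUR, its receptor, fell in both, from 48.1 ± 2.4 to 33.0 ± 1.1 TPM and from 47.2 ± 1.2 to 27.0 ± 3.2 TPM (SD, n = 3 each). EHD2, a membrane-bending ATPase of caveolae, changed most in shAPC (-0.84, SE 0.08), from 46.4 ± 3.4 to 25.5 ± 2.2 TPM (SD, n = 3 each). It was also lower in CTNNB1 (-0.28, SE 0.07). AHNAK, a very large scaffold that binds the ANXA2 and S100A10 complex, fell from 286 ± 38 TPM with shNT1 to 175 ± 37 TPM with shAPC (-0.72, SE 0.13). With GFP it stood at 297 ± 27 TPM and with CTNNB1 at 283 ± 64 TPM (-0.09, SE 0.13; SD, n = 3 each). EHD2 and AHNAK were named for the size of their change in shAPC, so their values are descriptions and are given without p-values. The difference between the arms contains that same change and is a description too. It was called for EHD2 (0.56, SE 0.11) and not for AHNAK (0.63, SE 0.22), where 16.1% of 11741 genes were called.

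**Figure D4:**
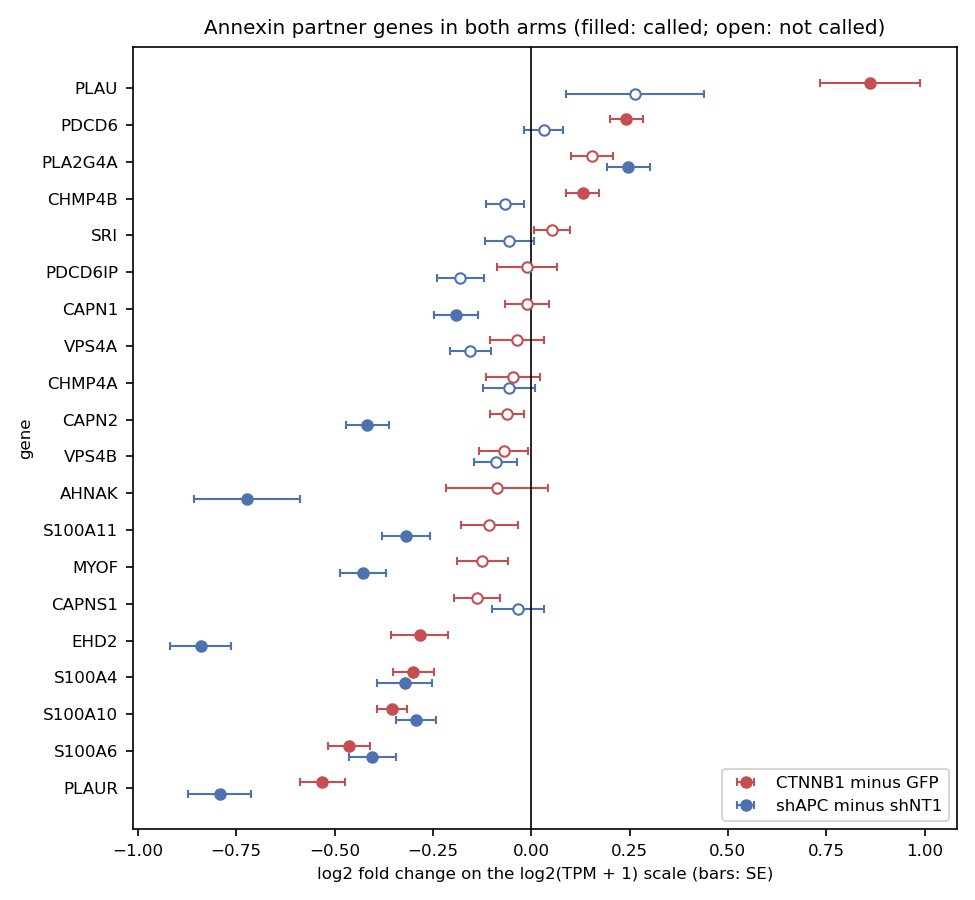
Log2 fold change on the log2(TPM + 1) scale (x axis) of the 20 tested partner genes (y axis) in CTNNB1 minus GFP (red) and shAPC minus shNT1 (blue), with standard errors as bars, filled where called and open where not. S100A10, S100A6, S100A4, PLAUR and EHD2 are filled and left of 0 in both, and PLAU (0.86) lies farthest right.

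Across the 12 libraries the genes whose log2(TPM + 1) followed ANXA6 most closely, among 9439 others with a mean of at least 5 TPM, were TEAD2 (Pearson r 0.993), TM7SF2 (0.986), DAB2 (0.986), HOTAIR (0.983) and DBN1 (0.983). TEAD2, a partner of the Hippo effectors, averaged 43.0 TPM in GFP, 71.5 in CTNNB1, 59.5 in shNT1 and 87.9 in shAPC, the same order of groups as ANXA6. For ANXA13 they were INPP1 (0.971), CDKN2B (0.965), PPARG (0.965), ETFDH (0.964) and REG4 (0.957), among 9438 others. The 12 points form 4 groups of 3, so these r describe mostly the group means. Under Spearman rho only 1 of the 5 stayed among the top 5 for each annexin, TEAD2 for ANXA6 and ETFDH for ANXA13, and under median-ratio scaling 3 of 5 did for each.

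The authors' deposited tables gave the same directions for the 7 members called here in at least 1 arm. They come from the same series, so this is no independent check. The direction of the APC knockdown comparison was read from its APC row (-1.41). For CTNNB1 against GFP, the authors' deposited table listed log2 fold changes of 2.02 for ANXA6, -1.01 for ANXA13, -1.0 for ANXA10, -0.48 for ANXA7, -0.45 for ANXA2, -0.18 for ANXA4 and 0.27 for ANXA3. In the authors' deposited table for APC knockdown they were 1.57 for ANXA6, -2.25 for ANXA13, -0.80 for ANXA10, -0.07 for ANXA7, -0.36 for ANXA2, -0.19 for ANXA4 and 0.32 for ANXA3. An adjusted p under 0.05 was given to 8 of 10 annexins in the authors' deposited table for CTNNB1, ANXA4 and ANXA5 among them, and to 5 of 10 in that for APC, where ANXA4 was not among them. Of the 28008 rows, more than the genes tested here, 9.42% passed that threshold in the authors' deposited table for CTNNB1 and 9.01% in that for APC. These shares are not comparable with those of the fits above, and nothing is read from the members' counts.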

How the data were processed

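RNA-seq of 12 HT-29 libraries was used, with groups and replicate numbers from the sample titles. Reads were aligned to hg38 with STAR 2.7.3a, per the submitters' processing notes, and the authors deposited TPM for 25528 rows. The annotation, the quantification tool and the depth of each library are not given in the sources used here. The authors also deposited 2 limma tables with log2 fold changes and mean log2 expression, p-values and adjusted p-values, and, per the file headers, t and log-odds scores that were not used.

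The members and lists were chosen with earlier results of these data known. Each arm was fitted alone on log2(TPM + 1), using limma (version 3.58.1, R 4.3.3) with a mean-variance trend, for genes with a mean of at least 1 TPM, and the contrast between arms and that between controls came from a fit of all 12 libraries. P-values were adjusted over all genes tested. The fits were tested on simulated data. The genes named are all 10 annexins, in each arm the 3 called partner genes with the largest change, and the 5 genes most like the 2 annexins whose group means ranged widest. S100A10, S100A4, S100A11, the untested partner genes and marker genes were named after their values were seen. Promoter windows and positions came from RefSeq (GRCh38.p14). Other settings tried were leaving out each library, median-ratio scaling, quantile normalization, a pseudocount of 0.1, a mean of at least 5 TPM or no minimum, no trend, a fit of all 4 groups, and the replicate number as a block.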

Additional observations from a re-analysis of the deposited data

Results flagged for a closer look

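For 2 of 10 annexins the change in the CTNNB1 arm minus that in the shAPC arm was called in a fit of 12 libraries. Of all 11741 genes in that fit 16.1% were called, 13.3% higher and 2.76% lower, so nothing is read from the count. Both contrasts were known when the members were listed, and the fall of ANXA13 after APC knockdown was among those results, so these are descriptions and no independent test. The difference was -0.30 (SE 0.06) for ANXA7, which was called lower in the CTNNB1 comparison and not in the other, and whose GFP level of 146 ± 3.4 TPM stood above the 3 other groups (102 to 110 TPM, group means). It was 1.17 (SE 0.16) for ANXA13, which fell by 0.77 and by 1.94 on the log2(TPM + 1) scale, and whose shNT1 level of 12.2 ± 0.19 TPM stood above that of GFP (5.59 ± 0.49 TPM, SD, n = 3 each). Both were called under each alternative that was run, with differences between -0.41 and -0.28 for ANXA7 and between 1.05 and 1.34 for ANXA13.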

How the results depend on the processing

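ANXA2, ANXA3, ANXA6, ANXA10 and ANXA13 kept direction and call in both arms under each alternative in which they were tested, as did ANXA7 in the CTNNB1 comparison. Because these contrasts were known when the members were listed, this describes the settings and adds no support. At a mean of at least 5 TPM ANXA6 and ANXA13 were not tested in that comparison, which left 4 annexins called, beside 2278 of 9340 genes. Median-ratio scaling gave 8 and 5 called in the 2 arms, 3 in the difference between arms and, ANXA13 left out, 8 of 9 between controls (7 without that scaling). Over all genes that scaling gave, in the same order, 2713 of 11617, 2853 of 11835, 1437 of 11738 and 3783 of 11738 called. Of 656 annexin values under alternatives 627 stayed on their side of the threshold with the same sign. Signs turned for values near 0. Under median-ratio scaling they turned for ANXA1 (-0.063 and 0.024 in the 2 arms) and ANXA11 (-0.014, CTNNB1 arm), and for the differences between arms of ANXA1 (-0.083), ANXA2 (-0.090), ANXA3 (-0.050) and ANXA5 (-0.066). Under quantile normalization they turned for ANXA1 (0.035) and ANXA11 (0.0053) in the shAPC arm and for the difference of ANXA6 (-0.029). With a pseudocount of 0.1 that difference of ANXA6 was 0.50 (SE 0.18) and not called. With a library left out, ANXA1 ranged from -0.016 (without GFP replicate 2) to 0.035 in the CTNNB1 arm and from -0.047 to 0.019 (without shNT1 replicate 1) in the shAPC arm, where it was also above 0 without shAPC replicate 2 (0.0092). Its difference between arms ranged from -0.0080 (without shNT1 replicate 1) to 0.058 and that of ANXA2 from -0.0075 (without shNT1 replicate 3) to 0.048. The cause was not tested.

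Same-numbered libraries had deviations that correlated at 0.22, 0.07 and 0.11 in the CTNNB1 arm, each best with its own number. In the shAPC arm they correlated at -0.15, -0.01 and -0.21, none best with its own number. The main fits took the numbers as pairs in neither arm, although the CTNNB1 values go with pairing in that arm. With the replicate block 6 annexins were called in each arm, as without it, and over all genes 2895 and 1767 were called, against 2730 and 2615. Leaving out a library gave 1499 to 3190 calls over all genes in the CTNNB1 arm (1617, 1499 and 1705 without GFP replicates 1, 2 and 3, and 1760 without CTNNB1 replicate 2), 1484 to 2252 in the shAPC arm (1646 and 1484 without shAPC replicates 2 and 3), 995 to 2143 for the difference between arms (1092 and 995 without GFP replicates 1 and 2, 1246 and 1021 without shAPC replicates 2 and 3, against 1885) and 2338 to 4116 between controls, with 6 to 8 annexins called in the CTNNB1 arm and 5 to 6 in the shAPC arm.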
